A study of Mus musculus with 9 samples.

Results

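The proteasome genes of mouse liver were followed through 9 RNA-seq libraries of a concanavalin A hepatitis experiment. The members were the protein-coding genes whose names begin with Psma, Psmb, Psmc, Psmd, Psme, Psmf or Psmg followed by a digit, and 47 of the 42188 genes in the count table met that rule. A group of 5 of them, Psmb8, Psmb9, Psmb10, Psme1 and Psme2, was set against the other 42. Control mice received phosphate-buffered saline by tail vein. ConA mice received, also by tail vein, 20 mg/kg concanavalin A, and livers were taken 12 h later; this lectin from jack beans drives T cells to injure the liver. MSA_ConA mice were injected intraperitoneally with 250 mg/kg MSA, taken to be the mesaconate of the study's title, 6 h ahead of the same lectin dose. All mice were labelled as wild-type C57BL/6 males, 8 weeks old, with 3 libraries per group numbered 1 to 3. Nothing in the labels ties a library to a litter, cage or sequencing run.

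The 26S proteasome degrades proteins tagged with ubiquitin. Its 20S core is a stack of rings of alpha and beta subunits, and the catalytic sites lie on Psmb5, Psmb6 and Psmb7. The 19S cap recognises ubiquitin and unfolds the substrate with a ring of ATPases (Psmc genes) and scaffold subunits (Psmd genes). Interferon-gamma is known to bring in replacement catalytic subunits, Psmb8, Psmb9 and Psmb10, which form the immunoproteasome, and to raise Psme1 and Psme2, which form the PA28 cap. These particles are known for cutting peptides suited to MHC class I presentation. Hepatocytes hold mainly the constitutive form, and immune cells hold more of the immune form.

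Library totals ran from 13294600 to 17276391 counts. A count was worth 0.0515 to 0.132 CPM, the unit used below for levels, in which counts are divided by the library total times a TMM factor (trimmed mean of M values, 0.571 to 1.26). Hepatocyte markers were high in all 9 libraries (6 genes summing to 96180 to 160400 CPM). The libraries numbered 1 stood apart from those numbered 2 and 3 in every group. Xist, which is transcribed from the inactive X chromosome of females, was at 0.0745 to 0.484 CPM in number 1 and at 666 to 1130 CPM in the 6 others, which goes against the male label of those 6. Nnt, partly deleted in C57BL/6J, was at 29.8 to 34.6 CPM in number 1 and at 168 to 266 CPM in the others. Each library is therefore named by its label only, and the treatment comparisons of the members are given for all libraries, for number 1 and for numbers 2 and 3. H2-K1, an MHC class I gene that differs in sequence between strains, was at 2021 to 8640 CPM in number 1 and at 100.3 to 165.3 CPM in the others. The sum of 5 skeletal muscle markers was 2818 CPM in MSA_ConA 3, 193.1 CPM in MSA_ConA 2, 172.7 CPM in ConA 2 and 31.1 CPM in ConA 3, and 0.52 to 1.71 CPM in the controls and in number 1.

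Promoter sequences of genes from the group of 5 set against the other members are shown because interferon-driven factors act at such regions. They run from 250 bases before to 50 bases after the annotated start, 5′ to 3′ along the gene's strand, from RefSeq's GRCm38.p6, a build other than that of the count table. Capitals mark a match to TTCNNNGAA, the gamma-interferon activation site, or to GAAA, 2 bases of any kind and GAAA, an interferon-stimulated response element bound by IRF factors, searched on both strands.
Psmb8, chr17:34197945-34198244, plus strand: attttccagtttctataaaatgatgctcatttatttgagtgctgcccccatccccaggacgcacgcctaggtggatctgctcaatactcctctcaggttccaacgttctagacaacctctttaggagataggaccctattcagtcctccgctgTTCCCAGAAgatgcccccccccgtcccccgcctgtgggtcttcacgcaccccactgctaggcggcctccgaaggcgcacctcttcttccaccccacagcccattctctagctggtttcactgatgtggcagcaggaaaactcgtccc
Psmb9, chr17:34187281-34187580, minus strand: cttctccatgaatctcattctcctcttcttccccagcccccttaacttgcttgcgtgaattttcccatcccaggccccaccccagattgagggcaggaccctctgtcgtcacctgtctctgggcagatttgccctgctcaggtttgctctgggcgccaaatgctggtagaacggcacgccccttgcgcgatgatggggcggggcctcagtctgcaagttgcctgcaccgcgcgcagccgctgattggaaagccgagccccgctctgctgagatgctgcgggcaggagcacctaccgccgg
Psmb10, chr8:105938343-105938642, minus strand: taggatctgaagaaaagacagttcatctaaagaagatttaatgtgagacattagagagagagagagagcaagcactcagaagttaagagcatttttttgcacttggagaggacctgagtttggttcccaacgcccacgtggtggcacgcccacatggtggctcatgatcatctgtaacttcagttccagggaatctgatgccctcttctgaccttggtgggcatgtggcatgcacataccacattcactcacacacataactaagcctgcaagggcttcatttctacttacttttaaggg
Psme1, chr14:55578244-55578543, plus strand: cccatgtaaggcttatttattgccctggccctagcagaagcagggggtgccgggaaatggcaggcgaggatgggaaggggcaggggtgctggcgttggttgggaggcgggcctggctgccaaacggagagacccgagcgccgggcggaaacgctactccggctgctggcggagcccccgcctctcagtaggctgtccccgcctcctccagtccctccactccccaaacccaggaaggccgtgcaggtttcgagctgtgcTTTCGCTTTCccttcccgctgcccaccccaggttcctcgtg
The activation-site match lay in Psmb8, at bases 154 to 162 of the window. The response-element match lay in Psme1, at bases 260 to 269, on the opposite strand. Neither motif occurred in the windows of Psmb9, Psmb10 or Psme2. Of 39 members with a promoter in the table, 2 (5.13%) held the activation site, against 8.3% of all 32841 promoters. For the response element the shares were 12.8% (5 of 39) and 3.44%. These 5 were Psmb3, Psmd4, Psmd9, Psmg4 and Psme1, of which only Psme1 belongs to the group set against the other members. A member was counted if any of its windows matched, while the background counts single windows. The Psmb9 window shares 275 bases with that of Tap1, a peptide transporter gene read in the opposite direction. A match is a description of these letters and not a measured binding site.

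All 5 immune-type genes were highest in ConA 1, the 3 catalytic ones by wider margins than Psme1 and Psme2. Psmb8 encodes the immune counterpart of Psmb5 and lies on chromosome 17, bases 35491856 to 35498447, in the C57BL/6NJ assembly used by the authors' table. It measured 42.3, 30.2 and 18.8 CPM in Control 1, 2 and 3, then 119.6, 17 and 9.14 CPM in ConA 1, 2 and 3, and 43.6, 13.6 and 14.0 CPM in MSA_ConA 1, 2 and 3. ConA 1 was the highest of the 9 libraries and ConA 3 the lowest, so the groups overlapped.

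Psmb9 replaces Psmb6 and lies on the same chromosome, bases 35474849 to 35480625. It measured 42.8, 24.0 and 14.8 CPM in Control, 78.0, 17 and 11.3 CPM in ConA, and 15.1, 17.5 and 16.3 CPM in MSA_ConA. In MSA_ConA, number 1 was the lowest of its group, the only time that this held among the 5 genes. Psmb10, the replacement for Psmb7 (chromosome 8, bases 112232507 to 112235171), measured 69.5, 58.2 and 39.5 CPM in Control, 289.7, 34.6 and 21.4 CPM in ConA, and 58.6, 25.8 and 26.2 CPM in MSA_ConA. It spanned the widest range of the 5 genes in deposited FPKM (counts per length and depth), 16.9 to 229.2, with ConA 1 alone above 54.5.

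Psme1 and Psme2 encode the subunits of PA28, which opens the gate of the core. Psme1 (chromosome 14, bases 52108833 to 52112239) measured 221.9, 91.3 and 68.1 CPM in Control, 245.3, 70.7 and 56.4 CPM in ConA, and 132.9, 64.1 and 60.1 CPM in MSA_ConA. Psme2 (chromosome 14, bases 52118263 to 52121858) measured 96.6, 50.0 and 39.4 CPM in Control, 110.9, 38.1 and 24.3 CPM in ConA, and 63.7, 22.0 and 30.8 CPM in MSA_ConA. For both genes, all 3 libraries numbered 1 lay above all 6 others, and ConA 1 stood close to Control 1.

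Psmb6, the caspase-like constitutive subunit, measured 262.0, 118.2 and 89.2 CPM in Control, 198.8, 73.4 and 62.9 CPM in ConA, and 226.4, 61.0 and 58.7 CPM in MSA_ConA. Psmb7, the trypsin-like one, measured 85.1, 62.6 and 68.4 CPM in Control, 126.8, 59.2 and 54.1 CPM in ConA, and 100.9, 55.7 and 52.8 CPM in MSA_ConA. For both genes the 3 libraries numbered 1 lay above the 6 others, with ConA 1 highest for Psmb7 and Control 1 highest for Psmb6.

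**Figure D1:**
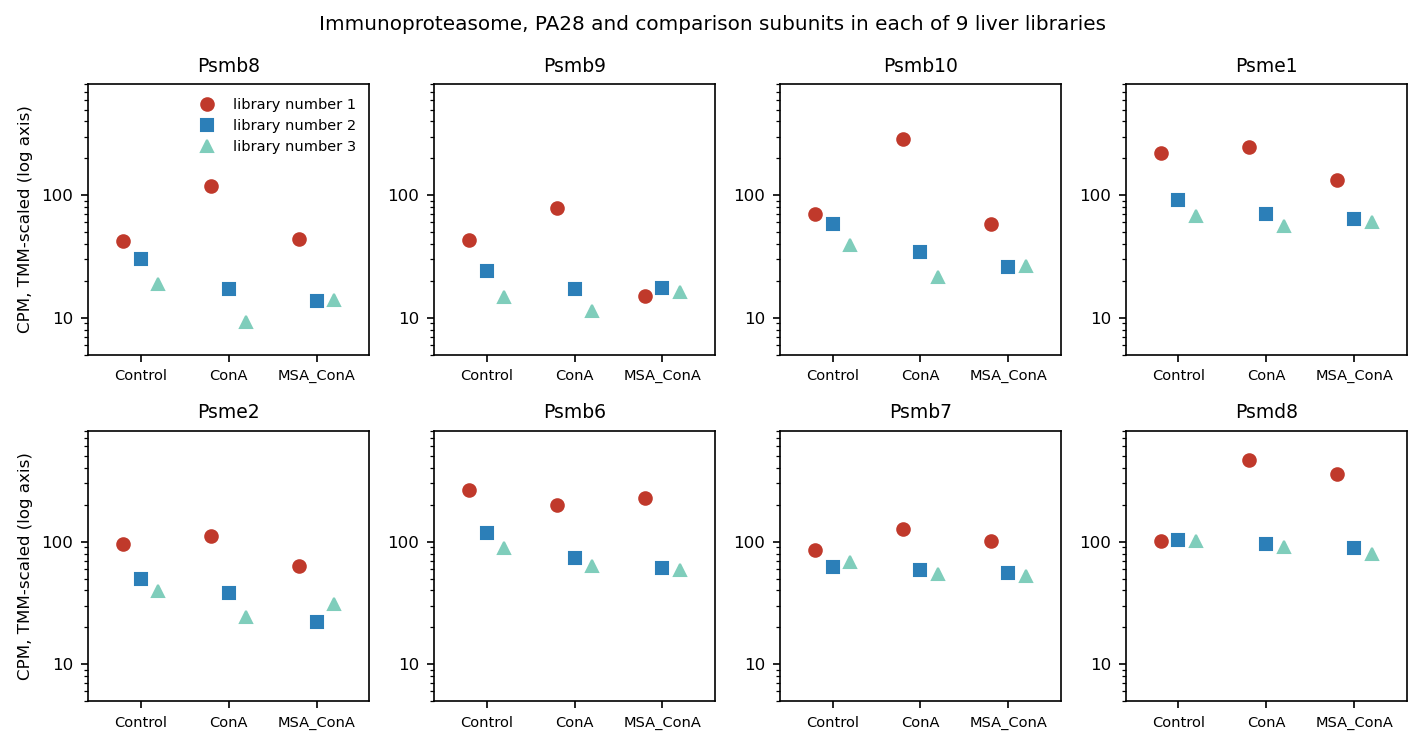
TMM-scaled CPM (log axis) of 8 proteasome genes in each of the 9 libraries, by group, with library numbers as colours and shapes and 1 point per library. ConA 1 is the highest library for Psmb8, Psmb9 and Psmb10 (119.6, 78.0 and 289.7 CPM), while ConA 2 and ConA 3 stay at or below 34.6 CPM for these genes; Psmd8 is at 461.2 CPM in ConA 1 and 356.9 CPM in MSA_ConA 1.

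The first comparison asked what concanavalin A did to these transcripts. With all 9 libraries, none of the 46 members tested changed between ConA and Control (edgeR's quasi-likelihood test, Benjamini-Hochberg adjusted p under 0.05), on a background of 0% of 14603 genes called. An unadjusted p under 0.05 was reached by 563 genes and by no member, and DESeq2 called 2 genes and no member. The 5 immune-type genes had a median log2 fold change of 0.38, the other 41 tested members one of -0.05, and all tested genes one of 0.07. Psmb10 had a log2 fold change of 1.05 ± 0.88 (SE, adjusted p = 0.9997), Psmb8 one of 0.67 ± 0.91 and Psmb9 one of 0.38 ± 0.69. Psme1 and Psme2 stood at -0.03 ± 0.68 and -0.10 ± 0.64. The other members lay between -0.83 and 1.07, with 18 positive and 23 negative. The extremes were Psmg3, a core chaperone (-0.83 ± 0.44), and Psmd8 (1.07 ± 0.78). Without ConA 1, the median of the 5 genes was -0.99, of the opposite sign.

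The libraries numbered 1 were set side by side as single libraries, so no test was made, and the intervals given are exact 95% intervals that cover counting error only. All 5 immune-type genes were higher in ConA 1 than in Control 1. Psmb10 was 4.17-fold higher (3.87 to 4.49), Psmb8 2.83-fold (2.56 to 3.13) and Psmb9 1.82-fold (1.64 to 2.03). Psme2 and Psme1 were 1.15-fold and 1.10-fold higher with TMM, but scaling by library totals, which lowers every one of these ratios by 1.41-fold, put both below 1. A rule counted genes at least 2-fold higher after 1 was added to each CPM, with 10 CPM or more in the higher library. It counted 2 of the 5 genes and 4 of the 41 other tested members, on a background of 14.4% of genes. For 2-fold lower it counted 0 and 2, on 10.1%.

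Among the other members, the highest ratios were those of 19S cap subunits and cap assembly chaperones. Psmd8, a lid subunit of the cap, measured 102.0 CPM in Control 1 and 461.2 CPM in ConA 1, a 4.52-fold ratio (4.26 to 4.80) and the largest of any member. It stayed at 356.9 CPM in MSA_ConA 1, and the 6 libraries numbered 2 or 3 held it between 78.7 and 104.0 CPM. Psmd10, a chaperone of cap assembly also called gankyrin, measured 8.11 CPM in Control 1 and 24.9 CPM in ConA 1 (3.07-fold, 2.44 to 3.88) and was at 6.98 CPM in MSA_ConA 1. Psmd3, another lid subunit, was 2.16-fold higher, and Psmd9, a further cap chaperone, 2.10-fold. The lowest ratio among the 10 cap subunits without ATPase activity was that of Psmd6, at 0.701.

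Ratios of core subunits and ATPases lay nearer to 1. In the alpha ring the ratio of ConA 1 to Control 1 ran from 0.579 for Psma4 to 1.75 for Psma5, with a median of 0.972 over 7 genes. In the constitutive beta ring it ran from 0.613 for Psmb3 to 1.49 for Psmb7, with a median of 0.836 over 6 genes. The 6 ATPases kept within 0.797 (Psmc5) and 1.12 (Psmc1). Under library totals 1 alpha ring, 1 beta ring and no ATPase gene had a ratio above 1.

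Of the chaperones that build the core, 3 of 4 were lower in ConA 1. Psmg2, which pairs with Psmg1 to assemble the alpha ring, measured 21.8 CPM in Control 1 and 6.01 CPM in ConA 1, 3.63-fold lower (2.75 to 4.86). Psmg3 was 2.86-fold lower and Psmg1 2.02-fold lower, while Psmg4 was at 17.3 and 20.2 CPM. Psmd5, a cap chaperone, was 1.85-fold lower. Pomp, the maturation factor of the core that the name rule leaves out, was at 183.2 and 173.4 CPM. Of the remaining activators, Psme3 (the nuclear PA28 gamma) was 1.36-fold higher, Psme4 (PA200) 1.13-fold higher, and the inhibitor Psmf1 was at 0.73 of its level in Control 1; the ratios of Psme3 and Psme4 were below 1 under library totals.

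For the remaining activators the 3 groups overlapped. Psme4, which caps the core in the nucleus and is known from chromatin and spermatogenesis, measured 54.1, 74.9 and 108.3 CPM in Control, 61.0, 110.8 and 138.1 CPM in ConA, and 86.8, 136.5 and 115.4 CPM in MSA_ConA. The library numbered 1 was the lowest of its group each time. Psme3 kept to 51.0 to 78.6 CPM and Psmf1 to 30.6 to 70.7 CPM.

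**Figure D2:**
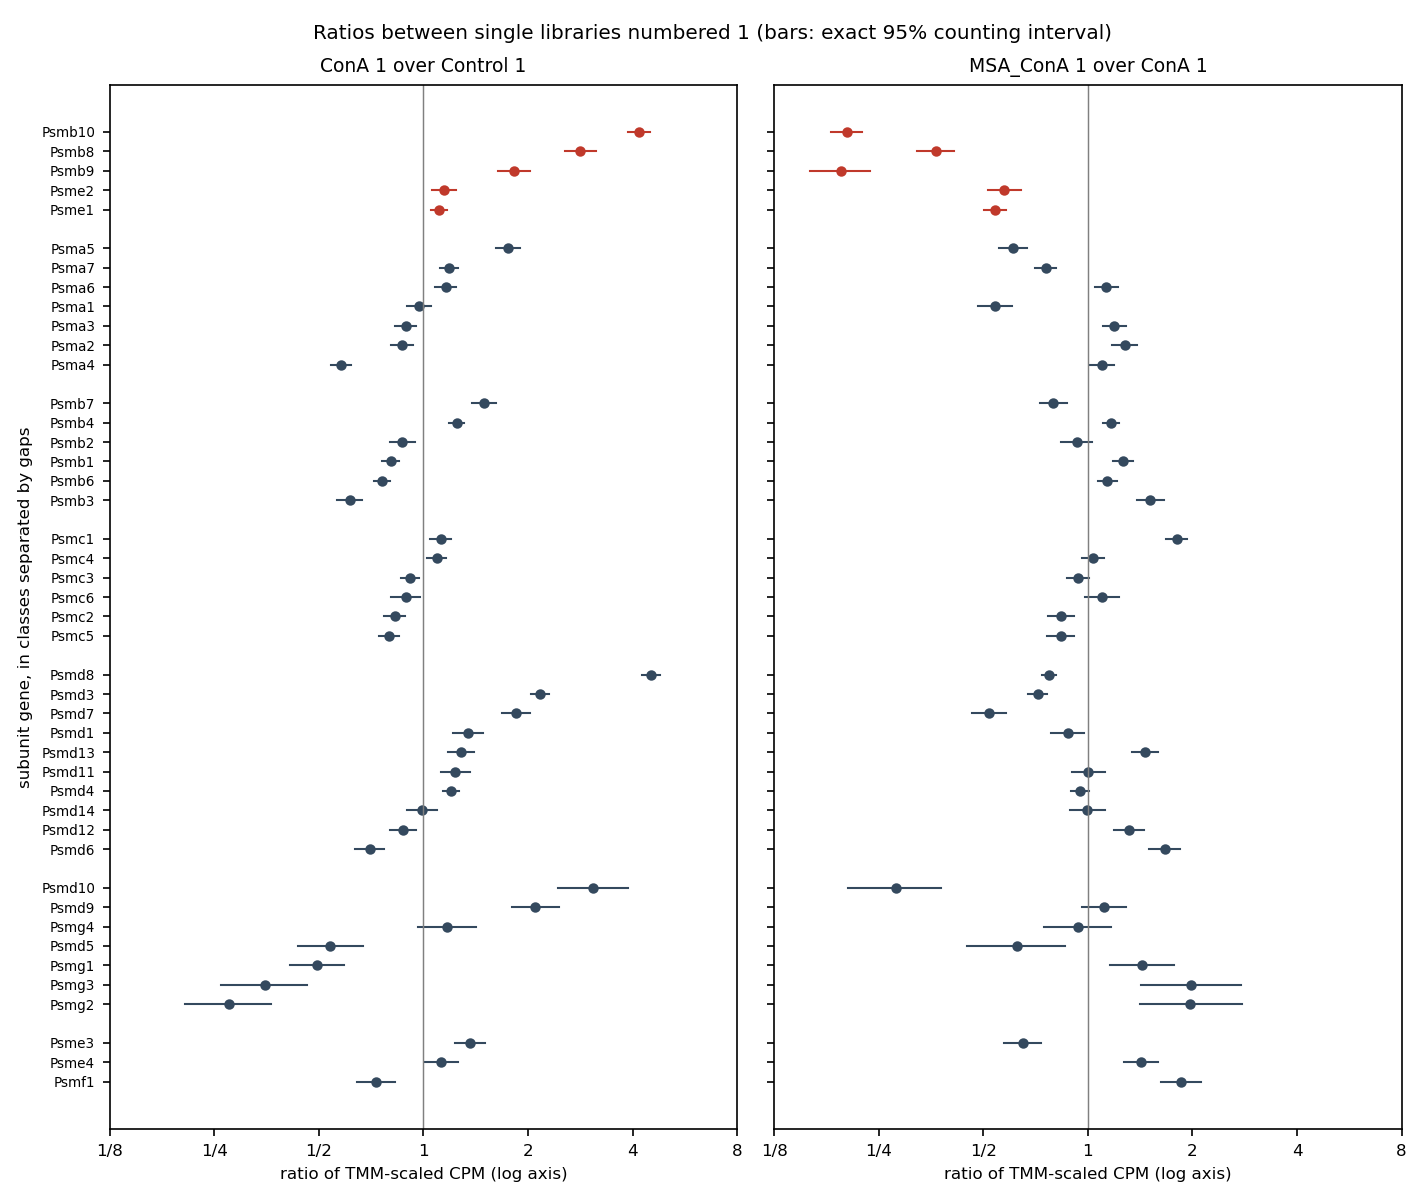
Ratio of TMM-scaled CPM between single libraries (log axis) for 44 members in classes separated by gaps, ConA 1 over Control 1 on the left and MSA_ConA 1 over ConA 1 on the right; points are ratios, bars exact 95% counting intervals, and red marks the 5 immune-type genes. All 5 red points lie above 1 on the left and below 1 on the right, and Psmd8 has the highest ratio on the left (4.52).

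The opposite direction was seen in the libraries numbered 2 and 3. All 5 immune-type genes were lower in ConA than in Control there, with a median log2 fold change of -0.53 against -0.15 for the other tested members and 0.03 for all genes. No member passed the test (0% of 14851 genes called by edgeR; 5 members and 1744 genes at an unadjusted p under 0.05). Psmb8 had a log2 fold change of -0.91 ± 0.32 and Psmb10 one of -0.81 ± 0.26, each with an adjusted p of 0.423 in edgeR's quasi-likelihood fit with 3 residual degrees of freedom. Muscle markers were higher in both ConA libraries than in both controls here (31.1 and 172.7 CPM against at most 1.56 CPM), and their part in these values was not tested. For Psmb8, Psmb10 and Psme2, ConA 2 and ConA 3 both lay below Control 2 and Control 3. The same order was seen in 26 of the 46 tested members (56.5%), on a background of 23.8% of genes, and the reverse order in 8 members, on 23.6%. By the 2-fold rule given above, none of the 46 was counted in number 2 (background 0.767% higher and 0.342% lower) or number 3 (0.11% and 0.274%). All 6 constitutive beta ring genes were negative as well, with a median of -0.34. Psmb6 was the most negative of them (-0.61 ± 0.18).

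Whether the response differed between the numbers was tested by fitting a separate mean for number 1 and for numbers 2 and 3 within every group, which takes the lone library of each group in number 1 to vary like the others. The ConA effect differed for 12 of 46 members (edgeR, adjusted p under 0.05), below the background of 31% of genes. In number 1 it was more positive for 9 of them, against 15.6% of genes (Psma5, Psmb7, Psmb8, Psmb10, Psmd3, Psmd7, Psmd8, Psmd9 and Psmd10) and more negative for Psmd5, Psmg1 and Psmg2, against 15.4% of genes. Under library totals the split was 6 more positive (1325 of 14603 genes) and 12 more negative (4159 of 14603 genes). Psmb10 differed by 2.86 ± 0.46 (log2, adjusted p = 0.00484), Psmb8 by 2.40 ± 0.54 (adjusted p = 0.0158) and Psmd8 by 2.32 ± 0.25 (adjusted p = 0.00113). For Psmb9 the difference was 1.32 ± 0.46 (adjusted p = 0.0656), and for Psme1 and Psme2 it was 0.47 ± 0.33 and 0.72 ± 0.45.

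**Figure D3:**
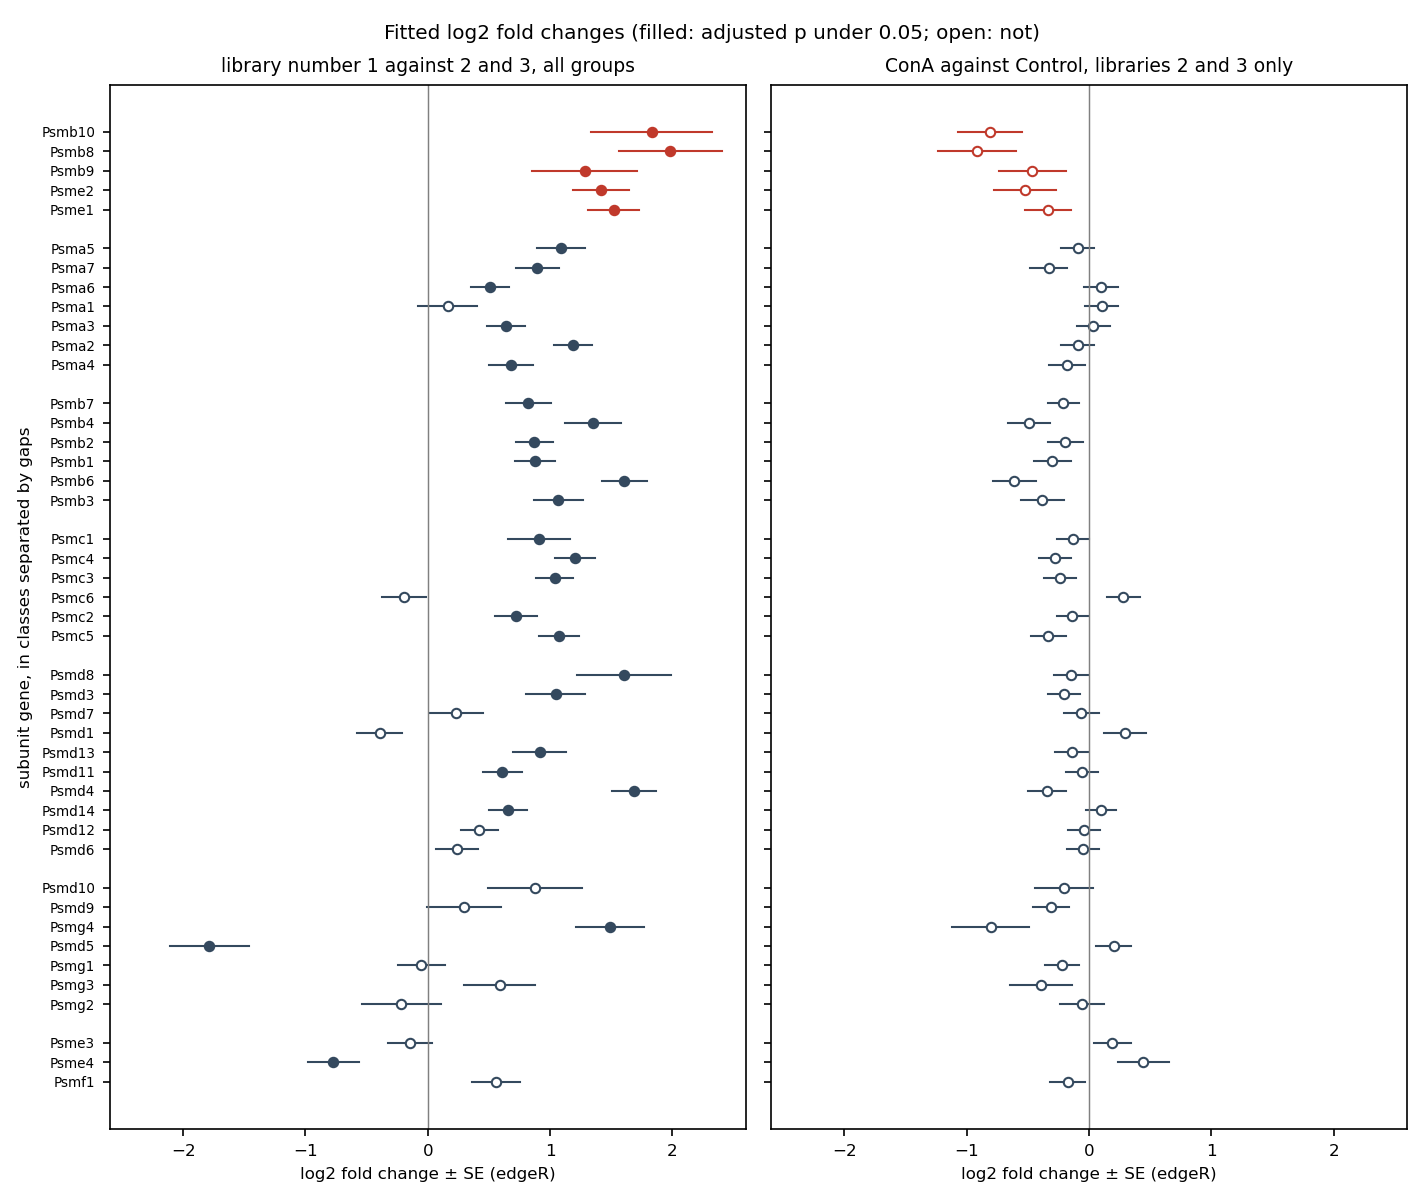
Fitted log2 fold changes ± SE from edgeR for 44 members in classes separated by gaps, library number 1 against numbers 2 and 3 on the left and ConA against Control in numbers 2 and 3 on the right; filled points passed an adjusted p of 0.05. On the left most members lie above 0 and Psmd5 (-1.79) and Psme4 (-0.77) are filled below it; on the right no point is filled and the 5 red points lie between -0.91 and -0.33.

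The comparison of MSA_ConA with ConA addressed what the pretreatment changed. No member passed the test over all 9 libraries (edgeR, background 0%; 248 genes and no member at an unadjusted p under 0.05; DESeq2 called 1 gene and no member). All 5 immune-type genes had negative fold changes, with a median log2 fold change of -1.04, against 0.05 for the other members and 0.02 for all genes. Psmb10 was at -1.64 ± 0.90, Psmb9 at -1.12 ± 0.70 and Psmb8 at -1.04 ± 0.91, each with an adjusted p of 1. Without ConA 1 the median of the 5 genes was 0.39, of the opposite sign, and in numbers 2 and 3 alone it was -0.03 (0% of genes and no member called; 1 member unadjusted). Muscle markers differed between these libraries as given above, and their part was not tested.

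In number 1 all 5 were lower in MSA_ConA 1 than in ConA 1, under TMM and library totals alike. Psmb9 was 5.15-fold lower (4.23 to 6.32), Psmb10 4.94-fold (4.47 to 5.47), Psmb8 2.74-fold (2.43 to 3.11), Psme1 1.85-fold and Psme2 1.74-fold. By the 2-fold rule 3 of the 5 were counted as lower, on a background of 10%, and 1 of the 41 other members, Psmd10 (3.57-fold lower). None of the 46 was counted as higher, on a background of 8.05%. In numbers 2 and 3 none was counted either way, where 0.178% and 2.01% of genes were higher and 0.616% and 0.192% lower. Psma1, an alpha ring subunit, was 1.85-fold lower and Psmd7, a lid subunit, 1.92-fold lower. Psmf1 was 1.85-fold higher, Psmc1, a cap ATPase, 1.80-fold higher, and Psmg3 and Psmg2 were 1.98-fold and 1.97-fold higher. For 5 of 46 members this effect was not the same in number 1 as in the other numbers (edgeR, background 18.7% of genes, 8.61% more positive and 10.1% more negative). Psmb9 (-2.62 ± 0.48, adjusted p = 0.0128), Psmb10 (-2.20 ± 0.46, adjusted p = 0.0195), Psmd10 and Psma1 were more negative in number 1, and Psmc1 was more positive. Under library totals 1 member was more positive (762 of 14603 genes) and 7 more negative (2044 of 14603 genes).

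MSA_ConA and Control were compared to see how far pretreated livers stood from untreated ones. No member passed the test over all 9 libraries (edgeR, background 0%; 730 genes and no member unadjusted; DESeq2 called 64 genes and no member). The median log2 fold change was -0.60 for the 5 immune-type genes and -0.03 for the others. Psmb8 in MSA_ConA 1 was at 1.03 of its level in Control 1 with TMM and below 1 under library totals, while Psmb9 was at 0.354 of it. By the 2-fold rule 3 of the 46 were higher in MSA_ConA 1 (Psmd8, Psmd9 and Psmc1; background 13%) and 2 lower (Psmb9 and Psmd5; 9.88%). In numbers 2 and 3 the median of the 5 genes was -0.76, and 15 members were below an unadjusted p of 0.05, with none called (0%) and a smallest adjusted p of 0.0842 (edgeR) for Psmb6. In MSA_ConA 2, 3 of the 5 genes were at least 2-fold below Control 2, on a background of 1.68%. No member was counted as higher there (background 1.21%), and in number 3 none was counted as higher (2.14%) or lower (0.671%). Of the tested members, 26 had MSA_ConA 2 and 3 both below Control 2 and 3 (background 27.6%) and 11 had both above (27.5%). Muscle markers stood at 193.1 and 2818 CPM in MSA_ConA 2 and 3, and their part was not tested. This comparison and that of ConA share the control libraries. The effect differed between number 1 and the others for 9 members (background 32.6%), among them Psmd8 (2.10 ± 0.25, adjusted p = 0.00158) and Psmd5 (-1.78 ± 0.28, adjusted p = 0.00374) in edgeR. It was more positive in number 1 for 6 of the 9 (background 16%) and more negative for 3 (16.6%). Under library totals the split was 2 (956 of 14603 genes) and 19 (5226 of 14603 genes).

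Number itself was the widest division among proteasome genes. With the group in the model, 31 of 46 members differed between number 1 and numbers 2 and 3 (edgeR, background 38.3% of genes). Of these, 29 were higher in number 1, where 19.1% of all genes were, and 2 were lower, where 19.2% were. Under library totals 12 differed, 6 higher in number 1 (1082 of 14603 genes) and 6 lower (5462 of 14603 genes). That scaling moved the median of all genes from -0.10 to -0.81. All 5 immune-type genes were among the 29, from Psmb9 (1.29 ± 0.43, adjusted p = 0.0440) to Psmb8 (1.98 ± 0.42, adjusted p = 0.00846). All 6 constitutive beta ring genes were too, led by Psmb6 (1.61 ± 0.18, adjusted p = 0.000960), as were 6 of 7 alpha ring genes, 5 of 6 ATPases and 6 of 10 other cap subunits, led by Psmd4, a ubiquitin receptor (1.69 ± 0.18). Psmd5 (-1.79 ± 0.33) and Psme4 (-0.77 ± 0.21) were the lower ones. Psmb4, Psmb6, Psmb8, Psmc4, Psmd4, Psme1 and Psmd5 were called under every scaling, filter, tool and left-out library tried. Of the 5 immune-type genes, Psmb9 and Psmb10 were not called without ConA 1. In MSA_ConA, Psmb9 was lower in number 1 (15.1 CPM) than in numbers 2 and 3 (17.5 and 16.3 CPM).

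Without a model, 28 of 46 members (60.9%) had all 3 libraries numbered 1 above all 6 others, on a background of 14.8% of genes, and Psmd5 alone had all 3 below them, on 19.2%. Control 1 showed the same order without any lectin: Psmb6 was at 262.0 CPM against 118.2 and 89.2 CPM in Control 2 and 3, and Psmd4 at 224.6 against 99.4 and 80.4 CPM. Psmd5 was at 22.3 CPM in Control 1 and 38.3 and 44.9 CPM in Control 2 and 3, at 12, 45.1 and 50.6 CPM in ConA, and at 7.51, 48.9 and 47.8 CPM in MSA_ConA. Sex, strain and any other trait that goes with the number cannot be told apart here.

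Levels of different genes were compared on the deposited FPKM, which is scaled by gene length. Psmb1 had the highest median over libraries (117.6 FPKM), followed by Psma6 (88.4) and Psmb4 (67.3). Among the 47 members Psme1 ranked 19, Psmb10 20, Psme2 27, Psmb8 39 and Psmb9 42. On this scale Psmb10 stood above Psmb7, the subunit it replaces, in all 9 libraries. The ratio was 6.15 in ConA 1 and between 1.07 (ConA 3) and 2.51 (Control 2) elsewhere. That order rests on the deposited gene lengths, 1270 bases for Psmb10 and 3421 for Psmb7. In raw counts Psmb10 was above Psmb7 in ConA 1 alone (2989 against 1309). Psmb9 stood far below Psmb6, at 0.201 of it in ConA 1, 0.0342 in MSA_ConA 1 and 0.0836 to 0.147 in the 7 others. In raw counts Psmb9 was below Psmb6 in every library as well, with deposited lengths of 3659 and 1872 bases. Psmb5 is not analysed here, so Psmb8 was set against the median of 13 core subunits, where it was at 0.602 in ConA 1 and 0.0908 to 0.256 in the others. In MSA_ConA 1 the ratio of Psmb9 was the lowest of all libraries and that of Psmb8 the second highest.

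**Figure D4:**
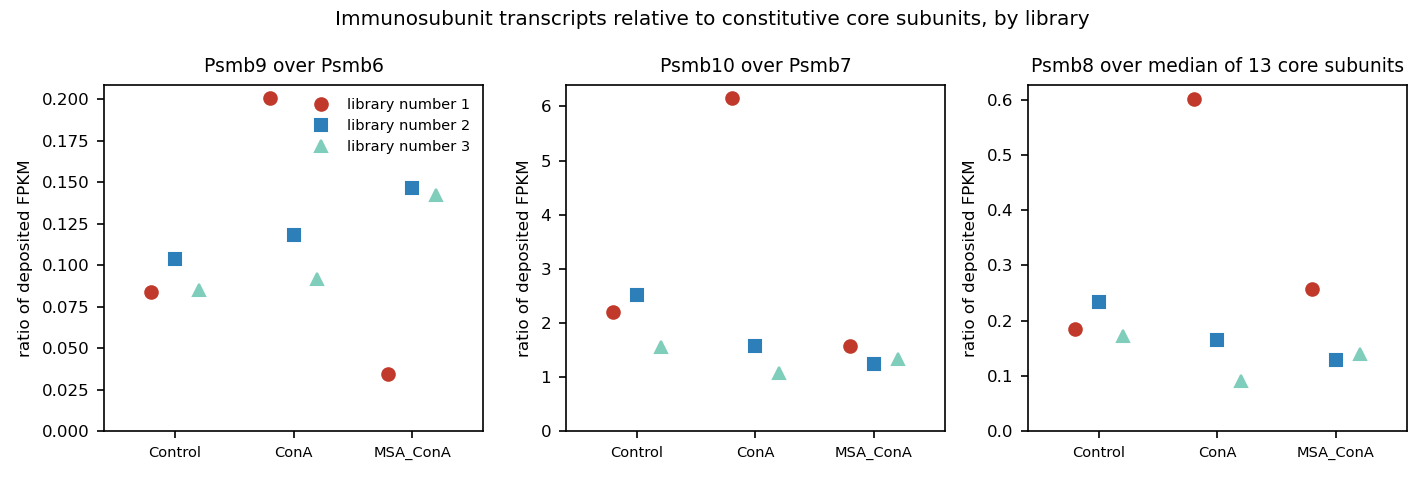
Ratio of deposited FPKM of each immune catalytic subunit to its constitutive counterpart, or for Psmb8 to the median of 13 core subunits, in each library, with numbers as colours and shapes and linear axes from 0. ConA 1 has the highest value in each panel (0.201, 6.15 and 0.602), and MSA_ConA 1 has the lowest Psmb9 value (0.0342).

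The tissue-restricted members were scarce. Psmb11, the thymic counterpart of Psmb5, had no count in any library and was not tested; a count of 0 allows up to 3 counts, or 0.155 to 0.395 CPM. Psma8, a germ cell alpha subunit, had 2 to 30 counts per library; its log2 fold change between MSA_ConA and Control was -1.21, with an adjusted p of 0.937 (edgeR). Psmc3ip, a recombination factor that is not a proteasome subunit, had 1 to 16 counts per library.

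Factors known to drive these genes, and genes that act with them, were read from lists of the pathway. In ConA 1, Irf1, an interferon-induced activator of immunoproteasome genes, was at 1746 CPM, 39.6-fold above Control 1, and it was between 14.2 and 47.6 CPM in the 8 other libraries. Tap1 was at 429.7 CPM, 11.1-fold above Control 1, while Psmb9, whose promoter window it shares, was 1.82-fold above. Nlrc5, an activator of MHC class I genes, was 2.54-fold above. Of the same interferon list, Stat2 was 1.16-fold above Control 1 and Irf9 was at 0.814 of it, both named after their values were seen. In MSA_ConA 1, Irf1 was at 14.2 CPM, Tap1 at 35.9 CPM and Nlrc5 at 62.8 CPM. H2-K1, named after its values were seen, was 4.28-fold above Control 1 in ConA 1 and 2.15-fold above it in MSA_ConA 1. Over all 9 libraries, 0 of the 11 tested interferon and NLRC5 genes passed the test between ConA and Control (4 unadjusted). The effect differed between the numbers for 7 of the 11, each more positive in number 1, where 15.6% of all genes were. The MSA_ConA effect against ConA was more negative in number 1 for 5 of the 11, where 10.1% of all genes were. In numbers 2 and 3 alone, 0 of the 11 passed the test between ConA and Control (1 unadjusted), with a median log2 fold change of -0.11.

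Of the 10 genes for peptide trimming and loading, 4 had a more positive ConA effect in number 1 and 1 a more negative one, on backgrounds of 15.6% and 15.4% of genes. Nfe2l1, which restores proteasome genes when the proteasome is impaired, was at 86.7 CPM in Control 1, 126.8 CPM in ConA 1 and 24.4 CPM in MSA_ConA 1, and at 133.4 to 182.2 CPM in the 6 others. Nfe2l2, the oxidative stress regulator, was at 144.7 CPM in ConA 1 and 81.5 to 95 CPM in the others. In the list of these regulators and their partners, 3 of 8 genes had a more positive ConA effect in number 1, on the background of 15.6%. Among 15 partners outside the name rule 3 did (20%), a share near that background. Shfm1, the small cap subunit also called Sem1, was at 96.0 CPM in Control 1 and 84.8 CPM in ConA 1.

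Some markers of immune cells moved with some of these values, and others did not. S100a8 and S100a9, abundant in neutrophils, were at 110.7 and 261.5 CPM in ConA 1, at 17.6 and 28.4 CPM in MSA_ConA 1, and at or below 1.64 CPM in the 7 others. The 5 monocyte and neutrophil markers summed to 374.9 CPM in ConA 1, 47.8 CPM in MSA_ConA 1 and 2.54 to 5.61 CPM elsewhere. S100a8 and S100a9 made up nearly all of the sum in ConA 1. Ly6g was highest in ConA 1 as well (1.94 CPM), while Ccr2 was lowest there (0.872 CPM, against 1.11 to 3.66 CPM elsewhere). Itgam was at 0 in 8 libraries. Ptprc, carried by all leukocytes, was at 12.7 CPM in ConA 1 and 4.08 to 15.3 CPM in the others. T and NK cell markers (7 genes) summed to 7.56 CPM in ConA 1 and 2.16 to 4.17 CPM elsewhere. Nkg7 (3.39 CPM), Trac (1.65 CPM) and Cd3d (0.969 CPM) were above Control 1 there. Cd3e, Cd3g, Cd8a and Klrb1c were below it, at 0.291 to 0.484 CPM. Only Cd3e and Nkg7 passed the expression filter. Kupffer cell markers (6 genes) summed to 192.2 CPM in ConA 1 and 118.7 to 330.3 CPM in the others. Clec4f, Vsig4, Timd4 and Cd5l were lower in ConA 1 than in Control 1. Marco (3.26-fold) and Adgre1 (1.86-fold) were higher. B cell markers (4 genes) summed to 3.58 to 9.23 CPM, dendritic cell markers (3 genes) to 2.90 to 13.8 CPM and endothelial markers (3 genes) to 82.8 to 143.8 CPM. Of the endothelial markers, Lyve1 was 9.65-fold higher in ConA 1 than in Control 1. Stab2 and Clec4g were 1.783-fold and 2.615-fold lower. The part of these cells in the immunoproteasome values was not tested, and in bulk tissue more cells of a type and more RNA per cell cannot be told apart.

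The 5 genes followed similar courses over the 9 libraries, with pairwise Pearson correlations of log2 CPM from 0.83 (Psmb9 and Psme2) to 0.98 (Psmb8 and Psmb10), given as a description since the libraries share the division by number. The genes of the whole table most like Psmb9, by Pearson correlation over 9 libraries and 13036 genes, were Proser2 (0.977), Dtx2 (0.970), Pgd (0.968), Hk3 (0.967) and Fez2 (0.966). No other member was among these 5.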

How the data were processed

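The authors deposited raw counts per gene and FPKM (counts per length and library size). Per the labels' protocols, Trizol RNA entered an Illumina library kit; strandedness is not given in the sources used here. Bowtie 0.12.2, mm8 and mm10 stand in the submitters' processing notes, without roles; the deposited gene identifiers are those of the C57BL/6NJ assembly. Columns headed with the letter M were taken as the MSA_ConA libraries, the one group with that initial. Members and gene lists were chosen with earlier results of these data known. Of 94 list entries, 85 matched a gene name and 2 a synonym.

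Counts were tested with edgeR 4.0.16 (R 4.3.3; TMM, expression filter by group, quasi-likelihood) on all genes, 14603 after filtering and 14851 for numbers 2 and 3, with Benjamini-Hochberg adjustment over all of them. DESeq2 1.42.0, limma 3.58.1 on log2(FPKM + 1) and on log2(FPKM + 0.1), RLE size factors, library totals, no filter, only the groups compared, a replicate block and leaving out each library were alternatives. The scripts were tested on simulated data. P-values set each difference against the spread between libraries that the fit leaves. In the fit with a separate mean for number 1 in each group, that spread comes from numbers 2 and 3 alone.

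Same-numbered libraries deviated together from their group means (correlations over genes of 0.489 to 0.72 among libraries numbered 1, 0.364 to 0.575 among those numbered 2, 0.337 to 0.493 among those numbered 3). Numbers 2 and 3 correlated as highly with each other (0.332 to 0.706). A gap of number 1 alone would make 2 and 3 deviate together from means of 3 libraries, so these correlations cannot show pairing. The main fits did not pair libraries, and the replicate block was an alternative. Named genes are the 5 immune-type genes, their counterparts, the other activators and the inhibitor, the tissue-restricted members, the extremes of each class in number 1, and fixed pathway genes, of which 1 is not reported here; members with the smallest p per class and genes called in the tests of difference are named where counts refer to them. Psmb5 is not analysed here, so the planned ratio of Psmb8 to Psmb5 was replaced. RefSeq promoters (GRCm38.p6) matched 39 of 47 members by symbol.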

Additional observations from a re-analysis of the deposited data

Results flagged for a closer look

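Results are listed here because the effect of treatment differed between the libraries numbered 1 and those numbered 2 and 3, by edgeR's test of the difference (log2 effect in number 1 minus that in numbers 2 and 3, adjusted p under 0.05). For ConA against Control this held for 12 of 46 members, below the background of 31% of genes. The difference was 0.90 for Psma5, 0.78 for Psmb7, 2.40 for Psmb8, 2.86 for Psmb10, 1.31 for Psmd3, 0.94 for Psmd7, 2.32 for Psmd8, 1.38 for Psmd9 and 1.82 for Psmd10. It was -1.09 for Psmd5, -0.80 for Psmg1 and -1.81 for Psmg2. Without any 1 of the libraries numbered 2 or 3, and under each other scaling, filter or tool, 7 of the 12 were still called: Psmb8, Psmb10, Psmd3, Psmd8, Psmd9, Psmd10 and Psmg2.

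For MSA_ConA against ConA it held for 5 members, on a background of 18.7% of genes. The differences were -1.07 for Psma1, -2.62 for Psmb9, -2.20 for Psmb10, 1.07 for Psmc1 and -1.89 for Psmd10. Psmb9 and Psmb10 were called under each of those settings. For MSA_ConA against Control it held for 9 members, on a background of 32.6% of genes. The differences were -1.22 for Psma1, 1.11 for Psmb4, 1.36 for Psmc1, 0.98 for Psmd3 and 2.10 for Psmd8. They were 1.12 for Psmd13, -1.78 for Psmd5, 1.76 for Psmd9 and -1.04 for Psmg2. Of these 9, Psma1, Psmd5, Psmd8 and Psmd9 were called under each setting. Every such value rests on a single library per group in number 1.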

How the results depend on the processing

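No member was called in any comparison over all 9 libraries under any alternative, the replicate block included (0 called). Under the block the log2 fold change of Psmb8, ConA against Control, was -0.079. It was -0.052 and -0.11 by limma on log2(FPKM + 1) and log2(FPKM + 0.1), and that of Psmb9 was -0.00044 with the latter. In numbers 2 and 3 only, ConA against Control gave -0.91 for Psmb8, -0.46 for Psmb9, -0.81 for Psmb10 and a median of -0.53 for the 5 genes; MSA_ConA against ConA gave 0.084 for Psmb8, 0.26 for Psmb9 and a median of -0.026. The cause was not tested.

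Leaving out each library in turn, the median of the 5 genes ran from -0.99 (without ConA 1) to 0.85 for ConA against Control and from -1.53 to 0.39 (without ConA 1) for MSA_ConA against ConA. That of the other members, MSA_ConA against ConA, ran from -0.32 (without MSA_ConA 1) to 0.34. For ConA against Control, Psmb8 ran from -1.22 to 1.14, Psmb9 from -0.94 to 0.85, Psmb10 from -0.99 to 1.52, Psme1 from -1 to 0.63 and Psme2 from -0.99 to 0.36. For MSA_ConA against ConA, Psmb8 ran from -1.81 to 0.84, Psmb9 from -1.53 to 0.20, Psmb10 from -2.14 to 0.39, Psme1 from -0.99 to 0.42 and Psme2 from -1.12 to 0.31. Psme1, MSA_ConA against Control, ran from -1.04 to 0.089 (without Control 1).

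Under library totals, 12 of 46 members differed by number, as did 6544 of 14603 genes. The effect of MSA_ConA differed between numbers for 8 members against ConA (2806 of 14603 genes) and 21 against Control (6182 of 14603 genes). The median log2 ratio of the 5 genes in number 1 was 0.37 for ConA over Control and -1.33 for MSA_ConA over Control. Leaving out each library numbered 2 or 3, chosen after seeing the data, gave 7 (without ConA 3) to 11 members for ConA against Control, 2 (without ConA 3; 3 without ConA 2) to 5 for MSA_ConA against ConA and 7 to 8 for MSA_ConA against Control. Genes called in these fits numbered 3068 to 4659 for ConA against Control, of 15091 to 15300 tested. They numbered 1368 to 2403 for MSA_ConA against ConA and 3646 to 4197 for MSA_ConA against Control. Leaving out each of the 9 gave 25 to 34 members for number, and 4016 (without ConA 1) to 8145 (without Control 1) genes.

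Depth limits Psma8, Psmb11 and Psmc3ip. With 1 library per group in number 1 and 2 in the others, treatment effects within a number have little or no replicate check.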
